A study of Mus musculus with 4 samples.

Results

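The 10 genes described here mark the glial cell types of the brain. Clu, Ndrg2, Sparcl1, Apoe and Glul are astrocyte genes, Fabp7 is a radial glia gene, and Cnp, Olig1, Olig2 and Mbp belong to the oligodendrocyte lineage. They were chosen by name, as the probes that the array's annotation gives to these symbols or to an older synonym. Each of the 10 had 1 probe, 9 under the current symbol and Cnp under the older name Cnp1. All 10 had a value on all 4 arrays, and they were 10 of the 13765 genes so measured.

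Radial glia are the neural stem cells of the developing brain and give rise to neurons, astrocytes and oligodendrocytes. Astrocytes supply lipids to neurons, clear glutamate and secrete proteins that organise synapses and matrix. Oligodendrocytes wrap axons in myelin, and their lineage is set by the transcription factors Olig1 and Olig2.

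The cells were NSCL61, a mouse glioma-initiating line made from neural stem cells that lack p53 by expressing an oncogenic HRas, with C57BL6, brain and stage P0 on every label. In the Eva1 shRNA cells an expression vector for a short hairpin RNA (shRNA) against Eva1, now named Mpzl2, an adhesion protein of the immunoglobulin superfamily, was introduced under hygromycin selection, and 2 arrays were labelled so. The other 2 arrays were labelled with the line alone and are taken as controls, since the series title speaks of a control hairpin. Their titles do not say whether these cells held a vector or were selected. If they were not, effects of vector and selection cannot be told apart from those of the hairpin. Both groups thus share the oncogene and the p53 loss, and no second hairpin or rescue is among the samples, so an effect of the hairpin other than on Eva1 was not tested. RNA was read in 1 colour on 3D-Gene mouse chips of 23473 probes, of which 21842 and 21513 held a value on the Eva1 shRNA arrays and 20662 and 20934 on the control arrays. The labels do not say whether the arrays of a group stand for separate cultures, and the p-values then cover only the spread between these arrays, which may be technical. In a whole culture, fewer cells of a type and less RNA per cell cannot be told apart.

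Intensities are given as the authors deposited them, scaled to a median near 25 on each array. Changes are log2 of Eva1 shRNA over control after quantile normalization, with a standard error (SE) and an adjusted p from limma fitted to all 13765 genes. The targeted gene Mpzl2 had intensities of 8.20 and 6.21 on the Eva1 shRNA arrays, against 55.0 and 54.4 on the control arrays, a log2 change of -3.12 (SE 0.16, adjusted p = 0.00105). At adjusted p under 0.05, 1856 genes were lower and 1720 higher in Eva1 shRNA cells, around a median of -0.01 for all genes. On the values as the authors scaled them, the median of all genes was 0.18, with 1295 called lower and 2714 called higher. The balance of directions among all genes therefore depends on the scaling, and each gene is read beside that median.

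Of the 10 glial identity genes, 5 fell in Eva1 shRNA cells, 0 rose and 5 did not pass the test. The astrocyte genes Clu, Ndrg2 and Sparcl1, the radial glia gene Fabp7 and the myelin enzyme gene Cnp made up the 5, with falls of 2.09-fold to 7.59-fold. Over all genes tested, 26.0% were called in either direction and 13.5% were called lower. At a distance of at least 2-fold, which all 5 reached after quantile normalization, 6.41% of genes were called lower. Sparcl1, Fabp7 and Cnp lay near that limit, with log2 changes of -0.996, -0.93 and -0.88 on the authors' scaling alone. Relative to the median of all genes under that scaling, they were -1.17, -1.11 and -1.05. The median log2 change of the 10 was -0.86, beside -0.01 for all genes. The genes were picked with results of these arrays known, so their count is a description and no test of the list was made.

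**Figure D1:**
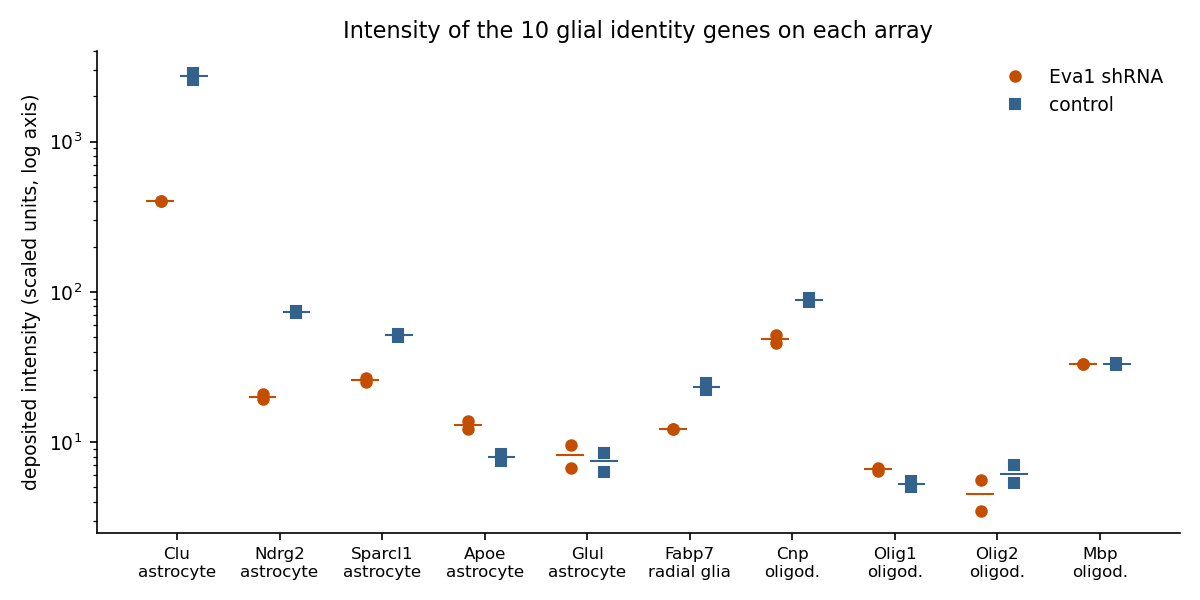
Deposited intensity of each glial identity gene on each array, on a log axis in the authors' scaled units, with Eva1 shRNA arrays as circles, control arrays as squares and the group mean as a line (n = 2 each). Clu, Ndrg2, Sparcl1, Fabp7 and Cnp lie lower on both Eva1 shRNA arrays, Mbp lies at the same height in both groups, and Glul and Olig2 overlap; heights of different genes are not comparable, since each comes from its own probe.

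Clu had the largest change of the 10. It encodes clusterin, also called apolipoprotein J, a secreted chaperone and lipid carrier made in large amounts by astrocytes. Its intensities were 401 and 404 on the Eva1 shRNA arrays, against 2874 and 2574 on the control arrays. The mean was 403 ± 2.25 in Eva1 shRNA cells and 2724 ± 213 in control cells (SD, n = 2 each). Both Eva1 shRNA arrays were far below both control arrays, and they lay closer to each other than the control arrays did. The fall was 7.59-fold, a log2 change of -2.92 with a 95% confidence interval of -3.28 to -2.57 (limma, two-sided, adjusted p = 9.927e-04). It was the fall of rank 33 among the 13765 genes. Adding 16 intensity units before taking log2, a step that shrinks the changes of dim probes, left it at -2.87, since the probe was bright in both groups.

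Ndrg2 encodes a cytoplasmic protein of the N-myc downstream regulated family that is enriched in astrocytes. It had intensities of 20.7 and 19.3 on the Eva1 shRNA arrays, against 74.1 and 72.7 on the control arrays. The groups stood well apart, and within each group the arrays differed little. The change was -2.08 on the log2 scale, or 4.23-fold lower (SE 0.14, adjusted p = 0.00122 in limma), the fall of rank 166. With 16 units added the log2 change was -1.45.

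Sparcl1, also called hevin, is a secreted matrix protein through which astrocytes promote the formation of synapses. Its intensities were 24.9 and 26.7 on the Eva1 shRNA arrays, against 50.3 and 52.5 on the control arrays. Both Eva1 shRNA arrays lay under both control arrays. The log2 change was -1.18, or 2.26-fold lower (SE 0.14, limma adjusted p = 0.00539).

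The remaining astrocyte genes, Apoe and Glul, did not pass the test. Apoe, the main lipid carrier that astrocytes secrete, had intensities of 13.8 and 12.3 on the Eva1 shRNA arrays, against 8.28 and 7.51 on the control arrays. Apoe was thus higher on both Eva1 shRNA arrays, opposite to the 3 astrocyte genes that fell. Its log2 change was 0.49 (SE 0.16, 95% interval 0.09 to 0.89, limma adjusted p = 0.0746). It passed under 2 alternatives, with the authors' scaling alone (log2 change 0.72, adjusted p = 0.0227) and without the dimmest 25% of probes (0.49, adjusted p = 0.0260). The value of 0.72 includes the shift of all genes under that scaling, and relative to their median it was 0.55. With 16 units added the log2 change of this dim gene was 0.19 (adjusted p = 0.152). Across all alternatives the change of Apoe kept its sign, with adjusted p-values of 0.0227 to 0.261.

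Glul encodes glutamine synthetase, with which astrocytes turn glutamate into glutamine. It gave 9.59 and 6.77 on the Eva1 shRNA arrays, against 8.49 and 6.37 on the control arrays. The groups overlapped, and the arrays of each group differed more from each other than the group means did. The log2 change was -0.08 (limma adjusted p = 0.838). Its 95% interval of -0.70 to 0.54 covers changes in either direction. Its sign turned under the authors' scaling (0.13), without Eva1 shRNA array 2 (0.12) and without control array 1 (0.20).

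Fabp7, the brain fatty acid binding protein, is a carrier of lipids that marks radial glia and is kept in many gliomas. Its intensities were 12.3 and 12.2 on the Eva1 shRNA arrays, against 22.1 and 24.6 on the control arrays. The Eva1 shRNA arrays nearly coincided, and both lay below the control arrays. The log2 change was -1.15, or 2.22-fold lower (SE 0.14, limma adjusted p = 0.00521). The gene is dim, and with 16 units added the change was -0.59 (adjusted p = 0.00113).

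Of the 4 oligodendrocyte genes 1 fell and 3 did not pass. Cnp encodes a cyclic nucleotide phosphodiesterase bound to the membranes of myelin and of immature oligodendrocytes. Its intensities were 45.5 and 51.4 on the Eva1 shRNA arrays, against 91.6 and 85.7 on the control arrays. No Eva1 shRNA array reached the lower control array. The log2 change was -1.06, or 2.09-fold lower (SE 0.16, limma adjusted p = 0.00909). This call rested in part on Eva1 shRNA array 1, for without it the change was -0.93 and the adjusted p = 0.0612.

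Mbp, myelin basic protein, compacts the myelin sheath and appears late in the lineage. It gave 32.9 and 33.2 on the Eva1 shRNA arrays, against 32.5 and 33.4 on the control arrays. The deposited values of the groups overlapped and their means, 33.0 in each group, differed by less than the spread between arrays. After quantile normalization the groups no longer overlapped, and the log2 change was -0.21 (95% interval -0.55 to 0.14, limma adjusted p = 0.320). With the authors' scaling alone it was 0.0014. Set against the median of all genes under that scaling, the change of Mbp was -0.17.

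Olig1 and Olig2 are related basic helix-loop-helix factors, and Olig2 also keeps neural and glioma progenitors in division. Each is the nearest tested gene to the other on chromosome 16. Olig1 had intensities of 6.46 and 6.74 on the Eva1 shRNA arrays, against 5.02 and 5.47 on the control arrays. It lay slightly higher on both Eva1 shRNA arrays, and its log2 change was 0.13 (95% interval -0.23 to 0.48, limma adjusted p = 0.550).

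Olig2 had intensities of 3.49 and 5.60 on the Eva1 shRNA arrays, against 5.30 and 7.00 on the control arrays. Here the deposited values overlapped, since Eva1 shRNA array 2 exceeded control array 1, and the arrays of the Eva1 shRNA group differed by more than those of any other of the 10 genes on the log2 scale (SD 0.54). The log2 change of Olig2 was -0.66 (95% interval -1.37 to 0.05, limma adjusted p = 0.146). It ran from -1.04 to -0.27 as single arrays were left out and was -0.16 with 16 units added.

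**Figure D2:**
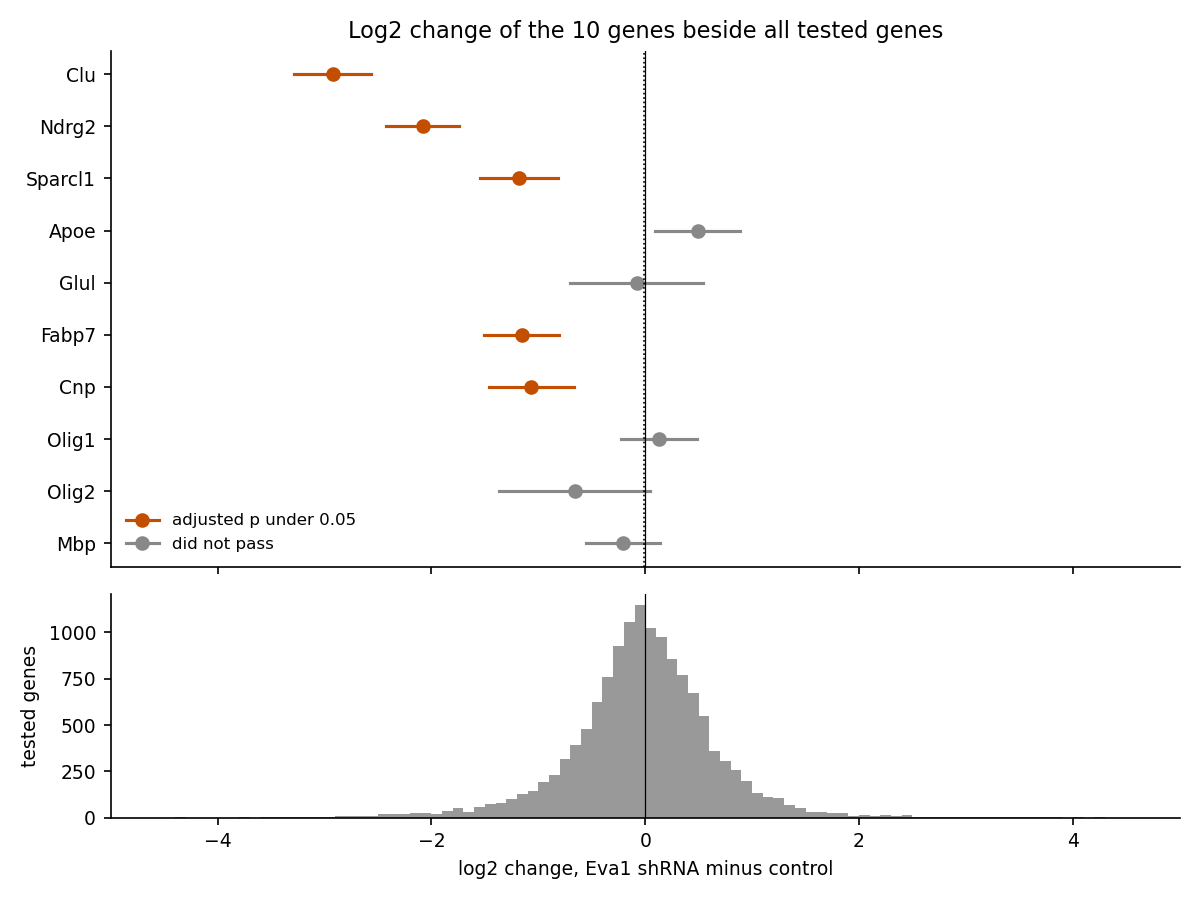
Log2 change of each glial identity gene, Eva1 shRNA minus control, with its 95% confidence interval from limma (top, 2 arrays per group), above the distribution of the log2 changes of all 13765 tested genes (bottom); the dotted line is the median of all genes. Clu and Ndrg2 lie in the far left tail, Sparcl1, Fabp7 and Cnp lie near -1, and the intervals of Glul, Olig1, Olig2 and Mbp include 0.

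Among the 5 genes that fell, 3 sizes of change were alike. The 95% intervals of Sparcl1 (-1.54 to -0.82), Fabp7 (-1.50 to -0.80) and Cnp (-1.47 to -0.66) covered nearly the same range. The interval of Clu (-3.28 to -2.57) did not reach that of Ndrg2 (-2.42 to -1.74), and neither reached those of the other 3. Differences between these genes were not tested. In rank among all genes, Sparcl1, Fabp7 and Cnp were falls 672, 711 and 816.

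Signal was low for the dimmest of the 10, and whether this hid changes was not tested. Glul, Olig1 and Olig2 were in the dimmest 25% of genes by mean level, where 14.8% of genes were called, against 29.7% of the other genes. Probes that were blank on at least 1 array, and so lay at the edge of detection, reached 5.09 and 5.05 at their 95th percentile on the Eva1 shRNA arrays and 3.95 and 4.33 on the control arrays. The values of Olig2 on the Eva1 shRNA arrays were within or just above this range, and those of Olig1 were close above it. Clu, Ndrg2, Sparcl1, Cnp and Mbp were well above it on all 4 arrays. After normalization 7 of the 10 genes lay lower on both Eva1 shRNA arrays than on both control arrays, 2 lay higher and 1 overlapped. Of all genes, 34.1% lay apart in the lower direction and 32.6% in the higher, 66.7% in all.

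The calls were the same 5 genes under most settings. Clu, Ndrg2, Sparcl1 and Fabp7 passed under every alternative run, with their highest adjusted p-values, 0.0151, 0.0163, 0.0429 and 0.0427, reached when an array was left out. Cnp passed under all but the omission of Eva1 shRNA array 1. Apoe joined the calls, as higher, under the settings named above. The size of the smaller falls varied more than the calls. With 16 units added, the log2 changes of Sparcl1, Fabp7 and Cnp were -0.81, -0.59 and -0.85, less than 2-fold.

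**Figure D3:**
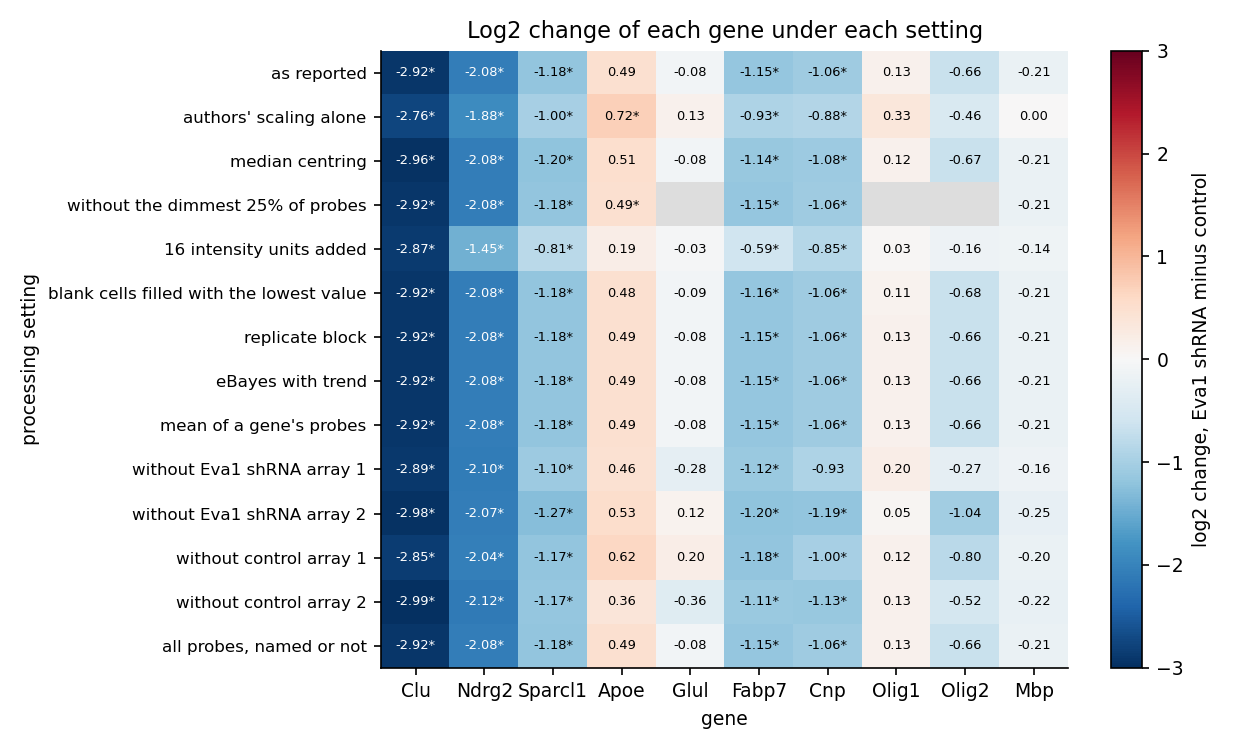
Log2 change of each glial identity gene (columns), Eva1 shRNA minus control, under each processing setting (rows); colour gives the change, an asterisk an adjusted p under 0.05 in limma, and grey a gene without a value in that setting. Clu, Ndrg2, Sparcl1 and Fabp7 carry the asterisk in every row, Cnp in all but 1, and Apoe in 2.

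Promoter sequence from RefSeq (GRCm38.p6) was searched for 6 of the 10 genes, in 10 windows, and 3 of these genes were among those that fell. Clu, Sparcl1 and Olig1 had no window, and Mbp, which did not pass the test, was left out of the search. The counts of windows given below therefore hold for the 6 searched genes alone. The windows of Ndrg2, Fabp7 and Cnp are printed because these genes fell together and are known from different cell types. Each is the 250 bases before an annotated transcription start, read 5′ to 3′ on the gene's strand. For Ndrg2, with 3 annotated starts, the window farthest upstream is given. Capitals mark matches to 4 short motifs searched on both strands, namely TGGGAA (the core bound by the Notch effector RBPJ), TTGGC (one arm of the nuclear factor I site), TTCNNNGAA (STAT factors) and ACGTG (the hypoxia-inducible factor core). None of the 4 contains another.
Ndrg2 (chr14:51914005-51914254, - strand): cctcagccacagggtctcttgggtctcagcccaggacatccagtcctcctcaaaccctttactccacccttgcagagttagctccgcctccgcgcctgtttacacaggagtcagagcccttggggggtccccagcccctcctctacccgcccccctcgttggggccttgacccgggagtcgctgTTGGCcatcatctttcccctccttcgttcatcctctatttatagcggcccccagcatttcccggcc
Fabp7 (chr10:57784673-57784922, + strand): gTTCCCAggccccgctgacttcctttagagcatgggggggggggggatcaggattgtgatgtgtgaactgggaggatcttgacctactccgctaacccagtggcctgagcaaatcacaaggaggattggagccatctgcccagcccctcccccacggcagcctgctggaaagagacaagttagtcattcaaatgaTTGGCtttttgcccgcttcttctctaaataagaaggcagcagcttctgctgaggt
Cnp (chr11:100574689-100574938, + strand): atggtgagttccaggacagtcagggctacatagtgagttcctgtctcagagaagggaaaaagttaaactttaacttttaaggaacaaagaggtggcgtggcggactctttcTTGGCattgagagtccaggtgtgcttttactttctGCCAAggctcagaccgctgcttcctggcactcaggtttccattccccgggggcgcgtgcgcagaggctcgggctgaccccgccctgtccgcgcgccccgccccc

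The arm TTGGC, or its reverse complement GCCAA, was in all 3 printed windows, once in Ndrg2, once in Fabp7 and at 2 places in Cnp. It was in 8 of the 10 windows, among them those of Glul and Olig2, which did not pass the test, and in 41.5% of the 32851 promoter windows of the table. An unprinted window of Ndrg2 lacked it. Some windows of Ndrg2 and of Apoe overlap, so the 10 are not separate sequences. TGGGAA was in 1 of the 10 windows, that of Fabp7 as TTCCCA, and in 21.6% of all windows. TTCNNNGAA and ACGTG were in 0 of the 10, against 7.02% and 16.6% of all windows. These are matches of letters, not measured binding.

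The nearest tested genes on either side of the 5 that fell numbered 10, of which 1 was called lower and 1 higher, or 2 of 10 beside 26.0% of all genes. Both flank Clu on chromosome 14. They were Gulo (log2 change -0.96, limma adjusted p = 0.0273) and Scara3 (2.06, adjusted p = 0.00300), named after their values were seen.

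Of 37 tested relatives and pathway partners of the 10 genes 43.2% were called in either direction, beside 26.0% of all genes. These lists were drawn up with earlier results of these data known, so the share is a description and was not tested. In the NDRG family, Ndrg4 (-1.43, adjusted p = 0.00289) and Ndrg3 (-0.77, adjusted p = 0.0485) fell beside Ndrg2, while Ndrg1 had -0.03 (adjusted p = 0.925). Of 5 tested relatives of Sparcl1, 3 fell and 1 rose. These were the matrix protein genes Smoc2 (-2.26), Smoc1 (-1.21) and Sparc (-0.60), and Fstl1 (1.39). Of 6 other fatty acid binding protein genes 1 rose, Fabp3 (0.87, adjusted p = 0.0167), and none of the 6 fell with Fabp7.

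Among 8 tested genes of lipid transport other than Clu and Apoe, 3 fell and 1 rose. The lipoprotein receptor genes Lrp1 (-1.85) and Vldlr (-1.50) and the lipid transporter gene Abca7 (-1.32) fell, and Apod (1.43), a lipocalin of glia, rose. Beside Glul, 0 of 6 tested genes of glutamine and glutamate handling passed in either direction at an adjusted p under 0.05 in limma. Around Olig1 and Olig2, 9 related factors were tested, of which 3 fell and 2 rose. Id1 (-1.16), Id3 (-1.56) and Bhlhe22 (-1.33) fell, while Id2 (2.61) and Id4 (2.06) rose, the Id proteins being inhibitors of basic helix-loop-helix factors.

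Of 54 other tested genes of the same glial cell types 27.8% were called in either direction, near the 26.0% of all genes. Of 19 other tested astrocyte genes 6 fell and 3 rose, with a median of -0.13. Mt3 (-1.93) and Aldoc (-1.92) fell like Clu and Ndrg2, and Timp3 (2.47) and the gap junction gene Gja1 (1.32) rose. The 6 astrocyte genes of the list left untested, Gfap, Aqp4, Slc1a2, Slc1a3, Gjb6 and Ntsr2, were blank on 2 or 3 of the arrays and at most 2.75 where they had a value. Slc1a2, Aqp4, Gjb6 and Ntsr2 had values on both Eva1 shRNA arrays and were blank on both control arrays. Gfap had a value on an array of each group, and Slc1a3 on Eva1 shRNA array 1 alone. These 6 were thus at the edge of detection, while others of the list were not. Gja1 had 1391 and 1337 on the Eva1 shRNA arrays, against 467 and 508 on the control arrays, and Aldoc 232 and 152 against 604 and 663. The label of astrocyte gene says here where a gene is known from, not what these cells are.

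Of 12 other radial glia and neural stem cell genes 2 fell, Dll1 (-1.24) and Cd44 (-0.76), and 0 rose. Prom1 and Slc1a3 were left untested for blank cells. Prom1 had 11.8 and 9.76 on the Eva1 shRNA arrays, against 3.25 on control array 1 and a blank on control array 2. Nes, the intermediate filament gene of neural stem cells, had intensities of 435 and 430 on the Eva1 shRNA arrays, against 532 and 537 on the control arrays, without passing (log2 change -0.47, limma adjusted p = 0.0558). Like Cnp, 2 of 8 tested oligodendrocyte precursor genes fell, the growth factor receptor gene Pdgfra (-1.66) and Neu4 (-0.67). Of 15 other myelin and oligodendrocyte genes 0 fell and 2 rose, opposite to Cnp, namely Aspa (2.22), an enzyme of acetylaspartate breakdown, and Opalin (1.01). The precursor genes left with blank cells, Cspg4 and Lhfpl3, were at most 4.21 where they had a value. The myelin genes so left were Fa2h, Mal and Enpp6, at most 2.61, and Omg, blank on all 4 arrays.

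Of 44 tested genes in the lists of other cell types 29.5% were called in either direction, near the 26.0% of all genes. Of 13 neuron genes 3 fell, Nefl (-2.49), Nefm (-2.32) and Gap43 (-1.14), and 2 rose, Elavl4 (1.02) among them. The summed intensity of the 13 was 1593 to 1818 on the Eva1 shRNA arrays, against 4507 to 4929 on the control arrays. That difference came mostly through the neurofilament gene Nefl and the growth cone gene Gap43. Of 11 microglia genes 1 fell, Cd68 (-1.17), with sums of 236 to 239 on the Eva1 shRNA arrays against 296 to 313 on the control arrays. Of 8 endothelial genes 1 fell, Flt1 (-2.05), and 1 rose, Emcn (0.76). Their sums were 1655 to 1984 on the Eva1 shRNA arrays against 1609 to 1789 on the control arrays. Of 12 mural and fibroblast genes 2 fell, Rgs5 (-2.53) and Fbln1 (-1.67), and 3 rose, Acta2 (6.22) among them. Their sums were 1527 to 1765 on the Eva1 shRNA arrays against 1022 to 1064 on the control arrays. The members of these lists left with blank cells, Syp, Gad2, Slc17a6 and Neurod1 for neurons, Itgam, Ptprc and Fcrls for microglia, Pecam1, Cdh5, Cldn5 and Tek for endothelium and Cnn1 and Cspg4 for mural cells, were at most 4.46 where they had a value. Summed the same way, the intensity of the other astrocyte genes was 43094 to 45329 on the Eva1 shRNA arrays, against 29953 to 30439 on the control arrays, and that of the other radial glia and neural stem cell genes 22205 to 28175 against 17360 to 18468 on the control arrays. The oligodendrocyte precursor genes summed to 134 to 149 on the Eva1 shRNA arrays against 167 to 172 on the control arrays, and the other myelin and oligodendrocyte genes to 3285 to 4799 against 4995 to 5121 on the control arrays. A sum is carried by its brightest probes and does not count genes. The astrocyte sums were mostly Mt1 and Mt2 and the radial glia sums mostly Vim, named after their values were seen. Those of the other myelin and oligodendrocyte genes were mostly Cd9. Its intensities were 3825 and 2299 on the Eva1 shRNA arrays, against 4170 and 4172 on the control arrays. None of these carriers passed (limma adjusted p = 0.0504 for Mt1, 0.0748 for Mt2, 0.239 for Vim and 0.0967 for Cd9). The part of these lists in the changes of the glial identity genes was not tested.

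Of the calls named among these other genes, those of Gap43, Id1 and Id3 were lost, like that of Cnp, on the omission of 1 array, and those of Cd44, Ndrg3, Neu4 and Sparc whichever of the 4 arrays was left out. The calls of Bhlhe22, Cd68, Elavl4, Opalin and Rgs5 were lost on the omission of either of 2 arrays. Those of Emcn, Fabp3, Gulo and Smoc1 were lost on that of any of 3. The highest adjusted p with an array left out was 0.0666 for Bhlhe22, 0.120 for Cd44, 0.0648 for Cd68, 0.0941 for Fabp3, 0.0617 for Gap43, 0.114 for Gulo, 0.163 for Smoc1 and 0.181 for Sparc, each without Eva1 shRNA array 1. It was 0.0501 for Id1, 0.199 for Ndrg3, 0.123 for Neu4 and 0.0693 for Opalin without Eva1 shRNA array 2, and 0.0598 for Id3 without control array 1. Sparc, Ndrg3, Cd44 and Neu4 also lost their call with the authors' scaling (adjusted p = 0.0920, 0.102, 0.0610 and 0.0667 in limma). With 16 units added, the log2 changes of dim genes were smaller, at 4.10 for Acta2, 1.62 for Timp3, 0.37 for Opalin, -0.63 for Bhlhe22, -0.28 for Cd44, -0.22 for Neu4, and -0.21 for Smoc1 and for Gulo. They were also smaller for Elavl4 (0.42), Emcn (0.15), Nefm (-0.92) and Rgs5 (-0.86).

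**Figure D4:**
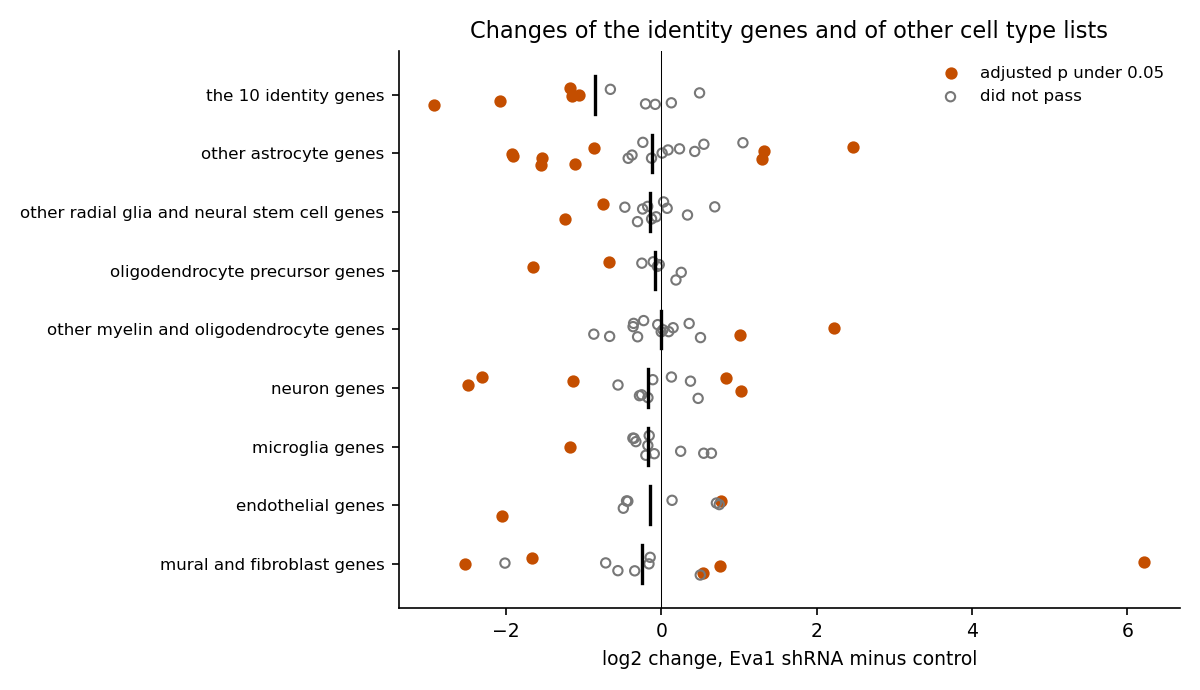
Log2 changes, Eva1 shRNA minus control, of the glial identity genes and of the tested genes of 8 other cell type lists (each point a gene, filled where the adjusted p was under 0.05 in limma, with the list median as a black bar and points spread vertically for legibility). The median of the 10 identity genes is -0.86 and those of the other lists lie between -0.25 and -0.0034.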

How the data were processed

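Messenger RNA was measured in 4 arrays of NSCL61 cells, 2 with Eva1 shRNA and 2 controls. Per the labels' protocols, total RNA was column-purified, amplified, labelled with Cy5 and hybridised in 1 colour. The deposited intensity values were linear and had been scaled by the authors to a median near 25, as the values show. Neither labels nor files name a scanner, a background correction or a rule for blanks. Between 6.95% and 12.0% of an array's cells were blank, and 19199 of 23473 probes had 4 values.

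Probe symbols (16631 probes had 1, 0 several, 6842 none) were updated through the RefSeq table of GRCm38.p6. Over these 19199 probes the log2 medians of the arrays differed by 0.274, so arrays were quantile normalized, and each gene was taken from its brightest probe. Groups were compared with limma 3.58.1 in R 4.3.3 (lmFit, eBayes, two-sided, Benjamini-Hochberg over 13765 genes, threshold 0.05, 2 residual degrees of freedom). The number of arrays limits the precision. The fit was tested on simulated data with 1 spread for all genes. It recovered 8 of 67 changes of 1.5-fold, 39 of 67 of 2-fold and 66 of 66 of 4-fold, with 1 false call. Changes under 2-fold were thus often missed there. Alternatives were the scaling, the filter on dim probes, 16 added intensity units, filled blank cells, a replicate block, eBayes trend, the mean of probes and each array left out. The fit over all probes was added after the data were seen.

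Members, lists and motifs were chosen with earlier results of these data known. The naming rule took the members, Mpzl2, up to 4 genes of smallest p per list and passing genes of the gene families. Other names are marked as chosen after their values were seen. For the cell type lists, genes with blank cells are named as complete sets. Figures were drawn with matplotlib 3.10.9. Same-numbered arrays of the groups did not deviate together (r = -0.0093 across probes).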

Additional observations from a re-analysis of the deposited data

How the results depend on the processing

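Of 127 values of the 10 genes under alternatives, 120 kept their direction and their side of the threshold, 1 lost its call, 2 gained one and 4 turned sign. The lost call was Cnp without Eva1 shRNA array 1 (-0.93), and the gained ones were Apoe with the authors' scaling (0.72) and without the dimmest 25% of probes (0.49). The sign turned for Glul with the authors' scaling (0.13), without Eva1 shRNA array 2 (0.12) and without control array 1 (0.20), its values with an array left out running from -0.36 to 0.20, and for Mbp with the authors' scaling (0.0014); neither was called in any setting. The authors' scaling raised the median of all genes to 0.18; otherwise the cause was not tested. The number of the 10 genes called ran from 4 to 6, and was 4 to 5 with an array left out. The number of all genes called was 1271 to 2301 with an array left out, beside 3576 with all. Fewer arrays leave fewer degrees of freedom, but the cause of the lower numbers was not tested. With the replicate number as a block, 5 of the 10 genes and 3102 of all genes were called, and the block changed no call among the 10. The pairing rests on the numbers in the titles alone. Without the dimmest 25% of probes Glul, Olig1 and Olig2 gave no value. The arrays hold no measure of background, which limits the dimmest genes.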
